A study of Mus musculus with 24 samples.

Results

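Genes of T and B lymphocytes were examined in mammary tumors that the carcinogen 7,12-dimethylbenz[a]anthracene (DMBA) had induced in mice fed low or high fat diets. The set holds 32 genes, 21 of T cells and 11 of B cells, taken as every probe on the array whose gene name was one of them: 42 of 39429 probes, and 32 of 30119 gene names. All mice were BALB/c females whose diets began at 3 weeks of age and which received 4 weekly oral doses of DMBA, 50 mg/kg each, from 5 weeks of age, so no tumor without carcinogen serves as a control. LFD mice stayed on a low fat diet, HFD mice stayed on a high fat diet, and LFD-HFD and HFD-LFD mice changed to the other diet at 9 weeks of age. The 24 tumors fell into 6 groups by diet and by the onset word of their labels: 5 LFD late, 6 HFD late, 4 LFD-HFD late, 3 HFD-LFD late, 3 HFD early and 3 HFD-LFD early, or 6 early against 18 late. The study lists latency and histology of the tumors by diet and onset group, which were not matched to single arrays and not used here, so the part of histology in the comparison of onsets was not tested. The labels did not say which tumors came from separate mice, so the p-values measure the spread between these tumors.

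T cells recognise antigen through a receptor that signals by the CD3 chains and by the kinases Lck and ZAP-70. The coreceptors CD4 and CD8 mark helper and cytotoxic T cells, and cytotoxic cells kill with granules of perforin and granzymes. B cells signal through CD79a and CD79b, and after activation become plasma cells, which secrete antibody. Both cell types can enter mammary tumors, and lymph nodes lie inside some mammary fat pads, so that their RNA can reach a tumor sample by more than 1 route. In RNA from whole tumors, fewer cells of a type and less RNA per cell cannot be told apart.

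The promoters of the CD3 chains and of both granzymes are shown because Cd3d, Gzma and Gzmb were among the genes lower in early tumors, and because the other CD3 genes lie near Cd3d. Each line holds the 250 bases before the start of the gene, read 5′ to 3′ on its own strand from RefSeq on GRCm38.p6, where 21 of the 32 genes had a window. Cd3d lies at chr9:44981536-44981785 on the plus strand, Cd3e at chr9:45009612-45009861 and Cd3g at chr9:44980432-44980681 on the minus strand. Gzma lies at chr13:113100982-113101231 and Gzmb at chr14:56262335-56262584, both on the minus strand. Capitals mark exact matches, on either strand, of the letters AGGAAG (the core bound by Ets factors), TGTGGT (the core bound by Runx factors) and CAGGTG (an E box), which nowhere overlap one another in these lines.
Cd3d: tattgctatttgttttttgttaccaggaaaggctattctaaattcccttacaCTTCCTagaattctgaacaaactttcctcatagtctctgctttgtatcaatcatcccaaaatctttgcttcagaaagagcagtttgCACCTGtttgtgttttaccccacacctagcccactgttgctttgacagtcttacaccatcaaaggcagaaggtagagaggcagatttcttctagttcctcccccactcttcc
Cd3e: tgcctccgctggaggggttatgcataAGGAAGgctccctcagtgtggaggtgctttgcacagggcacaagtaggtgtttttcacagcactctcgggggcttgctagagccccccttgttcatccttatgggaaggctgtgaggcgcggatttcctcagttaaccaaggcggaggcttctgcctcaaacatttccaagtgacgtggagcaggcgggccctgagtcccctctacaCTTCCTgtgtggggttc
Cd3g: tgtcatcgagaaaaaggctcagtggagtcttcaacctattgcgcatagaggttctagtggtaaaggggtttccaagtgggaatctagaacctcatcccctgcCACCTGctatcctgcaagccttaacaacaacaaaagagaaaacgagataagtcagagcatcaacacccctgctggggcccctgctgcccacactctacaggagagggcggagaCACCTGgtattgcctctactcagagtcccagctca
Gzma: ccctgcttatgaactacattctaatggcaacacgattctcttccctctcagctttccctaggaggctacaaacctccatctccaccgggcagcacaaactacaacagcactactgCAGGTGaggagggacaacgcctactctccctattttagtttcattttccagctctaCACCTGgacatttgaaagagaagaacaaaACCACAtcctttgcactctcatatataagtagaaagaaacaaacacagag
Gzmb: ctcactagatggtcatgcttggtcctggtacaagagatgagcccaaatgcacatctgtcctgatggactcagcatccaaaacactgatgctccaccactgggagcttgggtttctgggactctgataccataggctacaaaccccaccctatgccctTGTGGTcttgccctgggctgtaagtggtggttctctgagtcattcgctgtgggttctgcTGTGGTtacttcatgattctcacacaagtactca
The starts of Cd3d and Cd3g lay 1355 bases apart and pointed away from each other, and the starts of Cd3d and Cd3e lay 27825 bases apart. The Ets letters occurred in Cd3d and Cd3e, the E box letters in Cd3d, Cd3g and Gzma, and the Runx letters in both granzyme windows. Of 32851 windows of all genes, 29.5% held the Ets letters, 14% the Runx letters and 17.2% the E box letters, against 13, 5 and 14 of the 25 windows of the T and B cell genes. The letters ATGCAAAT, the octamer bound by Oct factors with their B cell partner Pou2af1, occurred in 1.6% of all windows and in 1 of these 25, that of Blnk. A match describes the letters in these windows and no binding was measured.

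Each tumor was hybridised on its own 2-color array beside RNA pooled from mouse cell lines, and a value is the log2 ratio of tumor to that reference. The ratio is read here as tumor in Cy5, as the labels say, which opposes the text of the paper. The array data settled it: the median SD of a probe between arrays was 0.61 log2 units in Cy5 and 0.27 in Cy3, and 2 Y chromosome probes were brighter in Cy3 on 24 of 24 arrays of these female tumors. In Cy5, 66.1% to 89.2% of probes stood well above background, and the highest shares were those of the HFD late tumors MSU_67 and MSU_84. On 7 arrays, all of late tumors, a block of spots was dim in Cy5. Values in it were left out, which removed 12 of the genes on the 4 arrays of slide 6 (MSU_24, MSU_28, MSU_93 and MSU_96) and Gzma and Pou2af1 on the 3 arrays of slide 7 (MSU_42, MSU_59a and MSU_59b). Of the 32 genes, 28 passed the signal filter (19 of T cells and 9 of B cells) among 20969 genes tested.

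MSU_58 and MSU_163 stood apart in the T cell genes before any groups were compared. MSU_58, an HFD-LFD late tumor, had the highest value of the tumors measured in 13 of the 19 T cell genes and in 1 of the 9 B cell genes, although it was highest in only 4.58% of all genes. MSU_163, an HFD early tumor, had the lowest value in 13 of the 19 T cell genes, against 10.8% of all genes. The spread was wide: the median SD over tumors was 0.78 log2 units for the 28 genes and 0.38 for all genes. Results it changes are therefore also given without MSU_58, a choice made after its values had been seen, and the effect of leaving out MSU_163 is given where it changes a call.

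**Figure D1:**
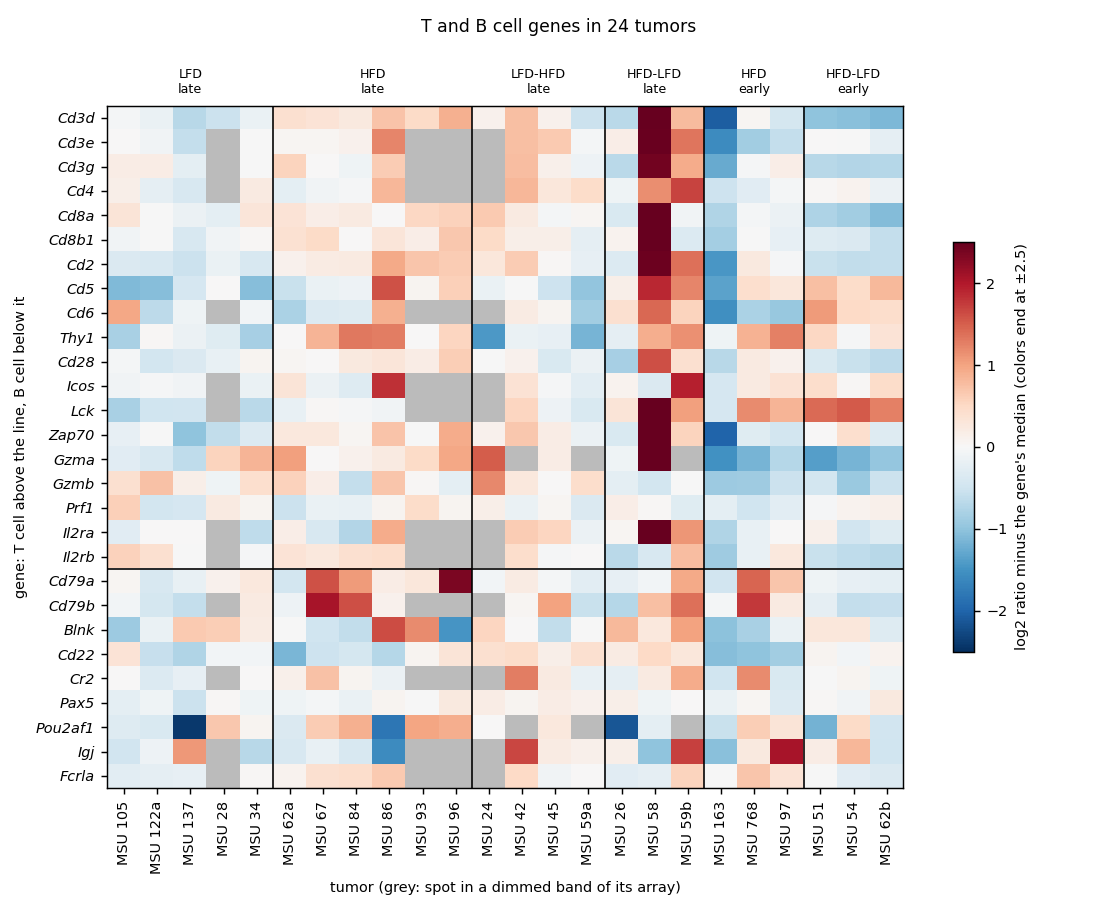
Log2 ratio of tumor to reference for 28 T and B cell genes (lines of the map) in 24 tumors (columns, by diet and onset), each gene with its median subtracted; color gives the difference in log2 units, and grey marks spots in a dimmed block. MSU_58 is the darkest column among the T cell genes, where it is highest in 13 of 19, and MSU_163 is mostly blue there, lowest in 13 of 19.

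The question of the first comparison was how early tumors differed from late ones. Several T cell genes were lower in early tumors, and no B cell gene passed the test over the 24 tumors. Granzyme B, granzyme A, the IL-2 receptor β chain and CD3δ were lower in early tumors (limma, adjusted p under 0.05 by Benjamini-Hochberg over all genes), and no gene of the set was higher. These 4 of 28 genes make 14.3%, close to the 10.9% of all 20969 genes that were lower, so the count does not set the lymphocyte genes apart, and 6.95% of all genes were higher. All 4 were T cell genes (4 of 19, 21.1%) and none of 9 B cell genes passed, where the unadjusted p was also never under 0.05. At an unadjusted p under 0.05, 9 of the 19 T cell genes were lower (47.4%), against 20.4% of all genes. The difference was below 0 in 16 of 19 T cell genes with a median of -0.62 log2 units, and in 7 of 9 B cell genes with a median of -0.11, against 57% of all genes and a median of -0.06.

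Granzyme B (Gzmb) is a protease of the granules with which cytotoxic T cells and natural killer cells kill. Its log2 ratio was -0.28, -0.27 and 0.08 in HFD early tumors and 0.17, -0.31 and 0.08 in HFD-LFD early tumors. In late tumors it was 1.02, 1.36, 0.77, 0.51 and 1.04 on LFD, 1.83, 0.89, 0.63 and 1.06 on LFD-HFD, 0.37, 0.16 and 0.61 on HFD-LFD, and from 0.03 over a median of 0.72 to 1.32 on HFD. All 6 early tumors lay below the late median, and 16 of 18 late tumors lay above every early one; the exceptions were MSU_58 at 0.16 and MSU_84 at 0.03. The difference, early minus late, was -0.90 ± 0.19 (SE), which is 1.87-fold lower, with an adjusted p of 0.00316 by limma. Its probe lies at chr14:56877916-56877975 on the minus strand of mm9. The difference passed with each of the 24 tumors left out in turn, including MSU_58.

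Granzyme A (Gzma), another granule protease, was -2.56, -2.20 and -1.76 in HFD early tumors and -2.41, -2.21 and -2.00 in HFD-LFD early tumors. The LFD late tumors gave -1.32, -1.44, -1.68, -0.49 and -0.19, the HFD late tumors ran from -1.04 to -0.02, and the LFD-HFD late tumors measured were 0.48 and -0.86. Of the HFD-LFD late tumors, MSU_26 was at -1.14 and MSU_58 at 3.89, the highest value of the gene. It was the only gene of the 28 whose early and late ranges did not overlap, with 15 of 15 late tumors above all 6 early ones; 0.782% of all genes had ranges without overlap. The difference was -1.78 ± 0.52, or 3.43-fold lower (limma, adjusted p 0.0238), and -1.47 ± 0.25 without MSU_58 (adjusted p 0.00132). The probe lies at chr13:113884035-113884094 on the minus strand of mm9. Perforin (Prf1), which opens the target membrane for the granzymes, did not share the pattern: its difference was -0.10, with early tumors from -0.29 to 0.34 and late tumors from -0.33 to 0.80.

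The CD3 chains carry the signal of the T cell receptor into the cell. Cd3d was -2.90, -0.78 and -1.28 in HFD early tumors and -1.84, -1.88 and -1.96 in HFD-LFD early tumors, a mean of -1.78 ± 0.71 (SD, n = 6). Late tumors ran from -1.53 over a median of -0.66 to 2.83 in MSU_58, with a mean of -0.52 ± 0.98 (SD, n = 18). The 3 HFD-LFD early tumors lay together below every late tumor, while MSU_768 and MSU_97 of the HFD early group lay inside the late range. The difference for Cd3d was -1.26 ± 0.41, or 2.39-fold lower (limma, adjusted p 0.0381), and -1.06 ± 0.26 without MSU_58 (adjusted p 0.0103). Its probe lies at chr9:44794171-44794402 on the plus strand of mm9.

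Cd3e ran from -2.04 over -0.88 to -0.47 in early tumors and from -1.06 over -0.39 to 2.00 in the 14 late tumors measured. Here the 3 lowest early values (-2.04, -1.34 and -1.06) were those of HFD, and the HFD-LFD early tumors at -0.47, -0.48 and -0.69 sat among the LFD late tumors. Cd3g ran from -0.98 over -0.42 to 0.44 in early and from -0.39 over 0.44 to 2.68 in late tumors. Differences of -0.97 ± 0.34 for Cd3e and -0.88 ± 0.32 for Cd3g did not pass (adjusted p 0.0531 and 0.058 by limma). Without MSU_58 they were -0.82 and -0.72 and both passed (adjusted p 0.0426 and 0.0352).

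Of the coreceptors, none passed over all 24 tumors. Cd8a was -1.33, -0.63 and -0.73 in HFD early and -1.35, -1.45 and -1.67 in HFD-LFD early tumors. Late tumors ran from -0.97 over -0.40 to 3.43, and MSU_58 at 3.43 stood far above the next highest, MSU_24 at 0.07. Its difference was -0.97 ± 0.39 (limma, adjusted p 0.0805) with MSU_58 and -0.75 ± 0.15 (adjusted p 0.00316) without it. Another Cd8a probe, well above background in Cy5 on 10 of 20 arrays, gave -0.36 ± 0.26 over all tumors measured. The β chain, Cd8b1, had an adjusted p of 0.107 with that tumor and differed by -0.50 ± 0.14 without it (adjusted p 0.0202). Cd4 had a difference of -0.47 (adjusted p 0.181, and 0.237 without MSU_58), and another Cd4 probe, dimmer and spotted 10 times, gave 0.10.

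The IL-2 receptor β chain (Il2rb) takes part in the IL-2 and IL-15 receptors of T and natural killer cells. It was 0.17, 0.87 and 1.32 in HFD early and 0.50, 0.41 and 0.35 in HFD-LFD early tumors, against 0.37 over a median of 1.35 to 1.82 in 14 late tumors. All 6 early values lay below the late median, and only MSU_26 at 0.37 and MSU_58 at 0.65 of the late tumors lay under 1. The difference was -0.62 ± 0.19, or 1.54-fold lower (limma, adjusted p 0.029; 0.021 without MSU_58). Its probe lies at chr15:78311109-78311168 on the minus strand of mm9. The α chain Il2ra, found on activated and regulatory T cells, gave -0.61 (limma, adjusted p 0.327), with its highest value of 4.62 in MSU_58. Without that tumor the difference of Il2ra was -0.36 ± 0.24 (adjusted p 0.306).

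Among the surface receptors, Cd2, an adhesion receptor of T and natural killer cells, ran from -1.0 over -0.12 to 0.69 in early and from -0.08 over 0.61 to 2.90 in late tumors. Its difference of -0.79 ± 0.32 did not pass (limma, adjusted p 0.0879; 0.0724 without MSU_58), and its other probe gave -0.21. Cd5 and Thy1 were nominally higher in early tumors (0.27 and 0.43) and Cd6 lower (-0.31), with adjusted p from 0.391 to 0.654. In HFD and HFD-LFD tumors alone, the diets with both onsets, Cd5 and Thy1 were nominally lower (-0.29 and -0.17). Cd28, the receptor for costimulation, ran from -0.69 to 0.22 in early and from -0.82 over 0.04 to 1.61 in late tumors, a difference of -0.40 (adjusted p 0.213), and Icos differed by -0.04. No receptor of these 2 roles passed.

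The kinases of the T cell receptor had opposite signs. Zap70 was -1.88, -0.18 and -0.34 in HFD early, 0.13, 0.54 and -0.20 in HFD-LFD early, and from -0.88 to 2.91 in late tumors, a difference of -0.66 ± 0.36 (limma, adjusted p 0.206). Lck was 0.83, 0.94 and 0.67 in HFD-LFD early tumors and -1.01, 0.59 and 0.27 in HFD early tumors. In late tumors it ran from -1.39 over a median of -0.69 to 3.03 in MSU_58, so that 5 of 6 early tumors lay above the late median. The difference was 0.81 ± 0.47 (limma, adjusted p 0.229) with MSU_58 and 1.07 ± 0.27 (adjusted p 0.0133) without it. Lck was then the one gene of the set that was higher, against 6.1% of all genes. Early tumors came only from HFD and HFD-LFD mice, and late tumors from every diet. In HFD and HFD-LFD tumors alone, MSU_58 among them, Lck differed by 0.3 ± 0.56 (limma, adjusted p 0.764). Within HFD it differed by 0.61, and within HFD-LFD by -0.25 with MSU_58 and 0.73 without it.

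Without MSU_58, 8 of the 28 genes were lower in early tumors (28.6%), against 9.89% of all genes, and Lck was higher in them. All 8 were among the 19 T cell genes (42.1%): Gzma, Gzmb, Cd8a, Cd3d, Cd8b1, Il2rb, Cd3g and Cd3e. The median difference of the T cell genes was then -0.50, smaller than with the tumor in, and the SE was smaller for most of the genes that passed, as for Gzma (0.52 with the tumor and 0.25 without it), but not for Il2rb (0.19 in both). No B cell gene passed without it either, and their median was -0.13. Leaving out MSU_163 had the opposite effect and left Gzmb as the one gene of the 28 that passed, against 13.7% of all genes in either direction (17.8% with every tumor in). Leaving out any 1 of the HFD-LFD early tumors left Gzma and Gzmb, against 13.8% to 16.3% of all genes. Without MSU_768 Gzma no longer passed (9.74% of all genes did), and without MSU_42 Cd3d no longer did (15.6%).

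**Figure D2:**
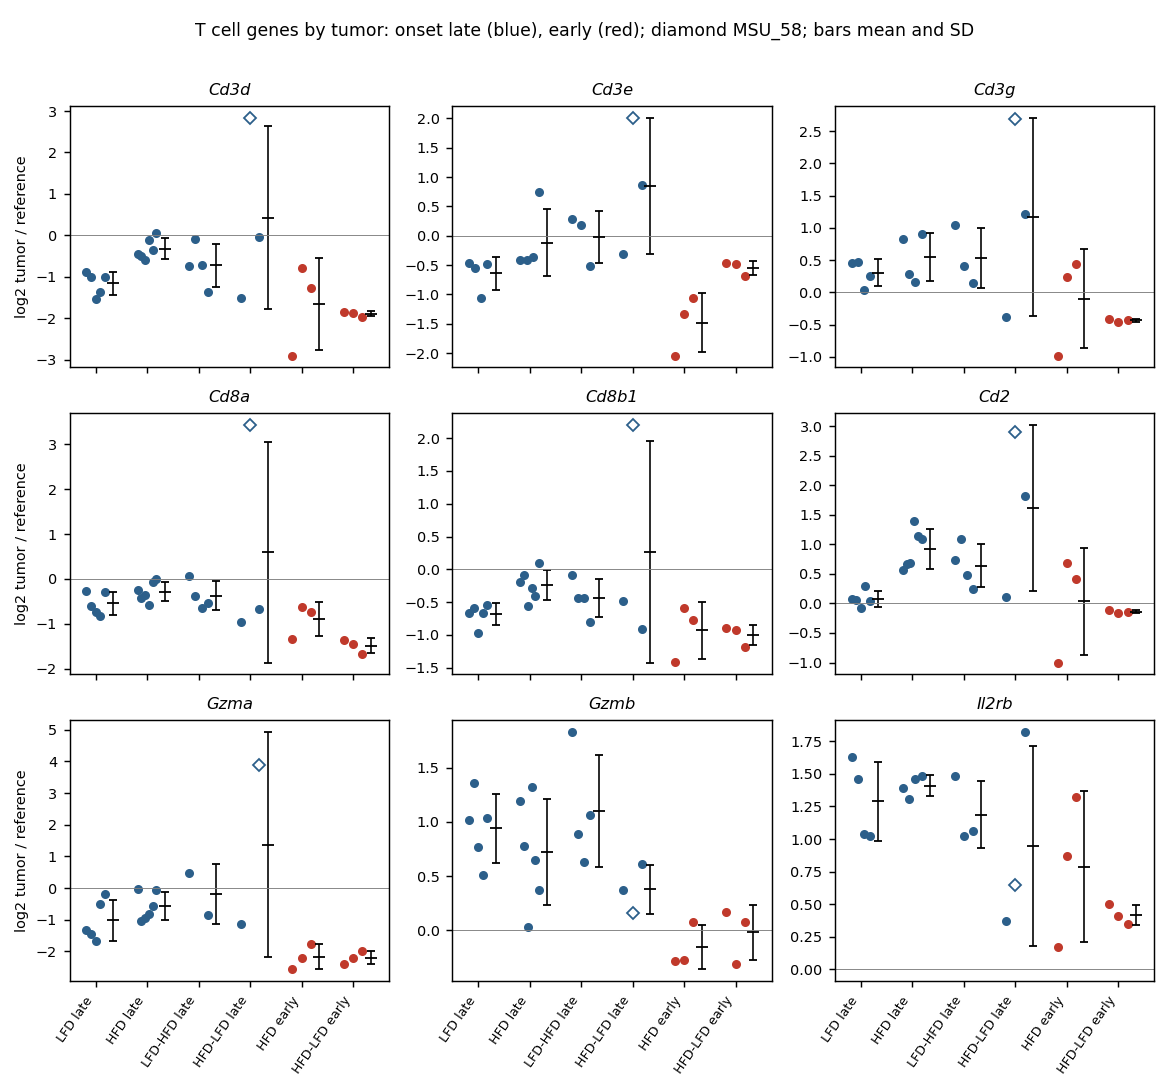
Log2 ratio of tumor to reference for 9 T cell genes in each tumor, by diet and onset (blue late, red early, open diamond MSU_58), with the mean and SD of each group beside it; the vertical scale differs between panels. The 6 early values of Gzma lie below all 15 late values, and MSU_58 is far above its group in Cd3d, Cd8a, Cd8b1 and Gzma but not in Gzmb or Il2rb.

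**Figure D3:**
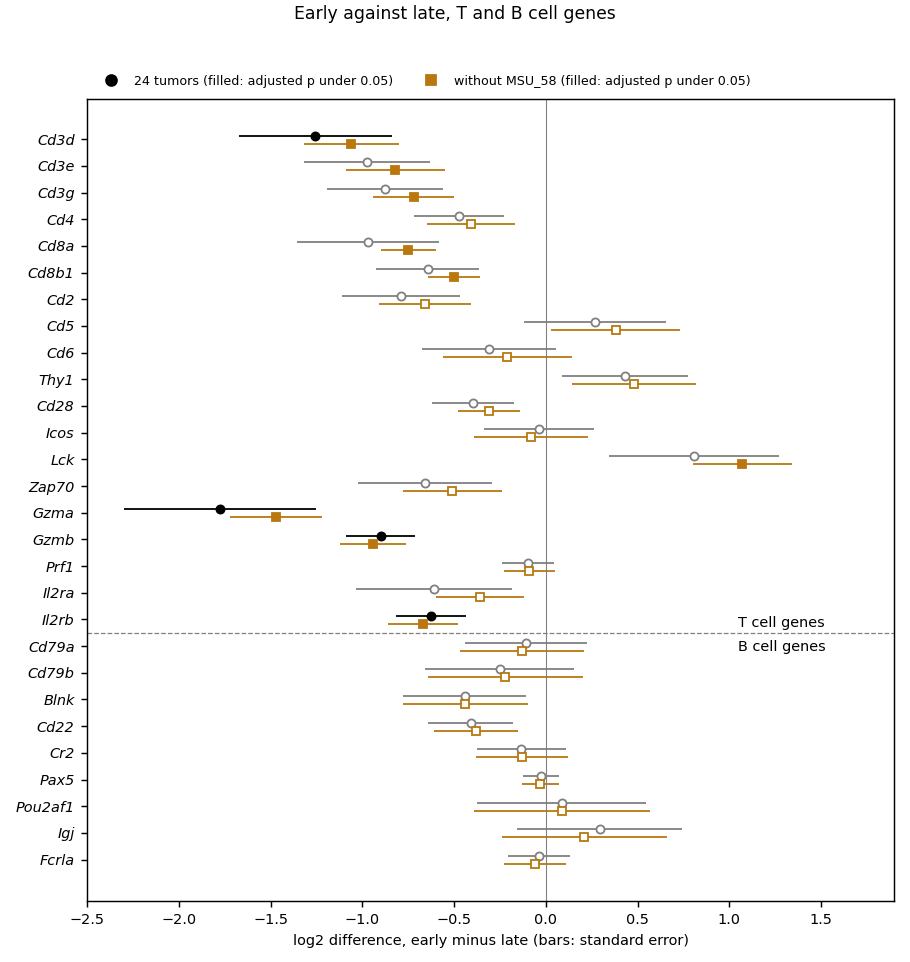
Difference in log2 ratio, early minus late, with its standard error for 28 genes over 24 tumors (circles) and without MSU_58 (squares); filled symbols passed at an adjusted p under 0.05. With 24 tumors 4 genes are filled, all T cell genes and all below 0, and without MSU_58 there are 9, of which Lck is the 1 above 0.

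The arrays were scanned in 3 sessions, and both onsets occurred in sessions 1 (3 early and 8 late) and 2 (3 early and 3 late). With session as a block 5 of the 28 genes passed (Gzmb, Gzma, Cd3e, Cd3d and Cd8b1), or 17.9%, against 26.7% of all genes in either direction. Within sessions 1 and 2 the difference was -0.90 and -2.09 for Cd3d, -1.24 and -2.83 for Gzma, -1.10 and -0.41 for Gzmb, and -0.56 and -0.26 for Il2rb. Lck gave 0.88 and 0.13. Gzma and Gzmb passed within session 1 (limma, adjusted p 0.0499 and 0.0302), against 7.32% of all genes, and none of the 28 passed within session 2, against 11.7% of all genes. Groups mostly had slides of their own: with slide as a random block Gzmb alone passed (adjusted p 0.0311), against 9.22% of all genes, and with slide as a fixed block none did, where slide and group cannot be told apart for most tumors.

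The same comparison was made within each diet that had both onsets. Within HFD, 2 of the 28 genes were lower in early tumors and none was higher, against 7.52% of all genes lower and 5.99% higher. Cd3e had early values of -2.04, -1.34 and -1.06 against -0.42, -0.42, -0.37 and 0.75 in the 4 late tumors measured. It differed by -1.36 ± 0.42, or 2.57-fold (limma, adjusted p 0.0414). Gzmb differed by -0.88 ± 0.27 (adjusted p 0.0327), although late MSU_84 at 0.03 lay within the early range. All 3 HFD early tumors were on slide 2, which held no other tumor, and no gene of the 28 passed with slide as a random block, against 2.38% of all genes. They were scanned in session 1. Within that session Cd3e (-1.36, adjusted p 0.0356) and Gzma (-1.47, adjusted p 0.0408) passed by limma, and Gzmb did not (-0.99, adjusted p 0.0573), against 8.58% of all genes. Over both sessions Zap70 gave -1.29 (limma, adjusted p 0.0731), and from -1.6 to -0.75 with each tumor left out. There 8 of the genes had an unadjusted p under 0.05, all lower, against 18.1% of all genes. Leaving out MSU_163, MSU_768, MSU_97, MSU_67 or MSU_86 left no gene of the 28 that passed, against 5.04% to 11.5% of all genes (13.5% with every tumor in). Without MSU_62a Cd3e and Cd22 passed and Gzmb did not, and without MSU_84 Gzmb passed and Cd3e did not.

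Within HFD-LFD no gene of the 28 passed, against 0.935% of all genes, of which 0.563% were higher and 0.372% lower. At an unadjusted p under 0.05 there were 10, all lower and all T cell genes, against 16% of all genes in either direction and 8.76% lower. Of these 10, only Cd3d, Cd8a and Cd2 were under 0.05 without MSU_58 (limma, unadjusted p 0.0271, 0.0115 and 0.0184), where Gzma was no longer tested. The largest difference was that of Gzma (-3.58 ± 0.89, limma, adjusted p 0.0643), which rests on late MSU_26 and MSU_58. Cd2 differed by -1.75 (adjusted p 0.0759) and Cd3d by -2.32 (adjusted p 0.0963). Without MSU_58 these were -1.10 and -1.12 and no gene passed. Without MSU_26 8 of the 26 genes still tested passed (Cd2, Cd28, Cd3d, Cd3e, Cd3g, Cd4, Cd8a and Il2ra), against 0.839% of all genes. The late tumors left there were MSU_58 and MSU_59b, which were highest in 13 and 3 of the T cell genes. Without MSU_59b Cd8b1 alone of the set passed (limma, adjusted p 0.0472). The difference between the onset changes in HFD and HFD-LFD was tested itself: no gene of the 28 passed, none had an unadjusted p under 0.05, and none of all 20969 genes passed (8.19% had an unadjusted p under 0.05). For Cd3d it was 0.99 ± 0.89 (SE), and from -0.21 to 1.96 with each tumor left out, so its sign turned. For Gzmb it was -0.48 ± 0.40, and from -0.63 to -0.36. A p that misses the threshold does not show equal changes.

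A further question was whether diet moved these genes. Between continuous HFD (9 tumors, 3 of them early) and LFD (5 tumors, all late) no gene of the 28 passed, nor did any of all genes, of which 0% were called and 5.25% had an unadjusted p under 0.05. In the set 5 genes had an unadjusted p under 0.05 by limma, all higher on HFD: Thy1, Lck, Cd5, Fcrla and Cd79b, against 1.91% of all genes higher at that level. Thy1, a surface protein of T cells and fibroblasts, was -0.84, 0.00, -0.17, -0.32 and -0.85 in LFD tumors. It ran from -0.13 over a median of 0.83 to 1.29 in the 9 HFD tumors, so the ranges overlapped only at their edges, with a difference of 1.08 ± 0.28 (limma, p 0.00153, adjusted p 0.777). Lck was -1.39, -1.09, -1.06 and -1.26 in LFD tumors and from -1.01 to 0.59 in the 7 HFD tumors measured (difference 0.81 ± 0.29, limma, adjusted p 0.915). For Lck the LFD tumors measured were all on slide 1 and the HFD tumors on slides 2 and 3, so diet and slide cannot be told apart. The same holds for Cd79b and Fcrla. Fcrla, an intracellular Fc receptor-like protein of B cells, was well above background in Cy5 on only 7 of 20 arrays, so its difference of 0.53 ± 0.16 (adjusted p 0.915) is poorly measured.

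Among the 18 late tumors, where onset is held fixed, no gene of the set passed for a difference between the 4 diets, against 0.277% of all genes. Without MSU_26, which left MSU_58 and MSU_59b on HFD-LFD, Cd2 passed, as 1 of 26 genes still tested, against 0.261% of all genes. At an unadjusted p under 0.05, 6 did (Thy1, Cd5, Lck, Cd2, Cd22 and Cd3e), with adjusted p from 0.116 to 0.32 by limma's F test, against 15.2% of all genes. For Cd2, LFD tumors were at 0.08, 0.05, -0.08, 0.29 and 0.04, and the 6 HFD tumors ran from 0.56 over 0.88 to 1.39. LFD-HFD tumors at 0.74, 1.09, 0.48 and 0.25 overlapped both, and HFD-LFD tumors spread from 0.11 to 2.90. Lck in late tumors was lowest on LFD, with a mean of -1.2 ± 0.15 (SD, n = 4), next to -0.65 ± 0.09 (n = 4) on HFD and -0.58 ± 0.47 (n = 3) on LFD-HFD, which overlapped each other. On HFD-LFD it was 1.07 ± 1.74 (n = 3), with MSU_58 at 3.03. Here too the LFD and HFD tumors measured for Lck lay on separate slides.

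MSU_58 carried T cell RNA of an uneven kind. Its log2 ratio was 3.43 for Cd8a, 2.20 for Cd8b1, 2.83 for Cd3d, 3.03 for Lck, 3.89 for Gzma and 4.62 for Il2ra. It was 0.16 for Gzmb, 0.32 for Icos and 0.65 for Il2rb, inside the range of the other tumors. Cd4 at 0.12 was below MSU_59b at 0.66. Of 6 genes that immature lymphocytes use to build their receptors, Dntt (which adds bases at receptor joints) was 4.35 in MSU_58 and from -1.13 to 0.22 in the others, and Ptcra (the pre-T cell receptor α chain) was 3.00 against -0.99 to -0.22. The recombinase genes Rag1 and Rag2 failed the signal filter, and their signals were looked at after those values were seen. One Rag1 probe read 2290 units in MSU_58 and from -7.25 to 21.7 in 19 others, and the other read 76.2 against at most 67.1. One Rag2 probe read 268 against at most 150, and the other, at 17.8, was not well above background. Vpreb1 and Igll1, of the B cell pre-receptor, were not raised in MSU_58: Vpreb1 was at -1.92 and Igll1 was not well above background. Of the 3 of these 6 genes tested between early and late tumors, Vpreb1 was lower in early tumors (-0.79 ± 0.26, limma, adjusted p 0.0418) and the others did not pass. What these cells were was not tested.

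Cd79a and Cd79b, the signal chains of the B cell receptor, were high in the same few tumors, MSU_58 not among them. Cd79a was 1.31 in MSU_96, 0.56 in MSU_67, 0.42 in MSU_768, 0.03 in MSU_84 and -0.10 in MSU_59b, and at most -0.35 in the other tumors. Cd79b was 0.01 in MSU_67, -0.28 in MSU_768, -0.44 in MSU_84 and -0.67 in MSU_59b, and at most -1.04 in the other tumors measured, which did not include MSU_96. MSU_768 is early and the other 4 are late, and of the 5 those except MSU_59b (HFD-LFD) are HFD tumors. Between early and late the differences were -0.11 and -0.25 (limma, adjusted p 0.842 and 0.694).

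Ms4a1, Blk, Ctla4, Foxp3 and Pax5 need their raw signal, since they failed the filter or came near it. Ms4a1, which encodes the B cell antigen CD20, was well above background on 7 of 21 arrays, with a background-subtracted tumor signal of 2150 units in MSU_96, 614 in MSU_768, 210 in MSU_67 and at most 90 elsewhere. Blk, a kinase of B cells, was highest in MSU_84 at 236, MSU_67 at 134, MSU_58 at 130 and MSU_96 at 83. Ctla4, an inhibitory receptor of T cells, was highest in MSU_84 at 351, MSU_67 at 254 and MSU_96 at 161. Foxp3, the transcription factor of regulatory T cells, was well above background on 23 of 24 arrays in the tumor channel, from 30.8 to 529, but too dim in the reference. Its highest signals were in MSU_96 (529), MSU_93 (396) and MSU_24 (329). These signals are not adjusted between arrays, and MSU_67 and MSU_84 were the arrays with most probes above background. Pax5, the factor that fixes B cell identity, passed the filter but was well above background on only 9 of 24 arrays, and its values of -0.75 to 0.04 hold little information.

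Blnk, an adaptor below the B cell receptor, ran from 0.24 over 1.02 to 1.56 in early and from -0.21 over 1.38 to 2.91 in late tumors, with MSU_96, highest in Cd79a, as its lowest (difference -0.44, limma, adjusted p 0.365). Cd22, an inhibitory receptor of B cells, was -0.78, -0.73 and -0.58 in the early HFD tumors and 0.34, 0.22 and 0.37 in the early HFD-LFD tumors. These groups were on different slides and scanned in different sessions, so that diet, slide and session cannot be told apart. Their difference was not tested. Against late tumors, at -0.86 over 0.39 to 0.78, it differed by -0.41 (adjusted p 0.219). It was the B cell gene that passed under another setting, at -0.49 from the mean of the group means and -0.85 from the tumor channel alone (limma, adjusted p 0.0354 and 0.016). Within HFD Cd22 also passed when MSU_62a was left out (limma, adjusted p 0.0377). Pou2af1, the partner of Oct factors in B cells, ran from 0.44 to 2.24 in early and from -0.79 to 2.60 in late tumors. Cr2, the complement receptor of B cells and follicular dendritic cells, was highest in MSU_42 (1.42), MSU_768 (1.33) and MSU_59b (1.07). The joining chain gene Igj, which links antibody units in plasma cells, ran from 0.57 over 1.83 to 3.67 in early and from 0.04 over 1.45 to 3.32 in late tumors (difference 0.29, adjusted p 0.679).

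**Figure D4:**
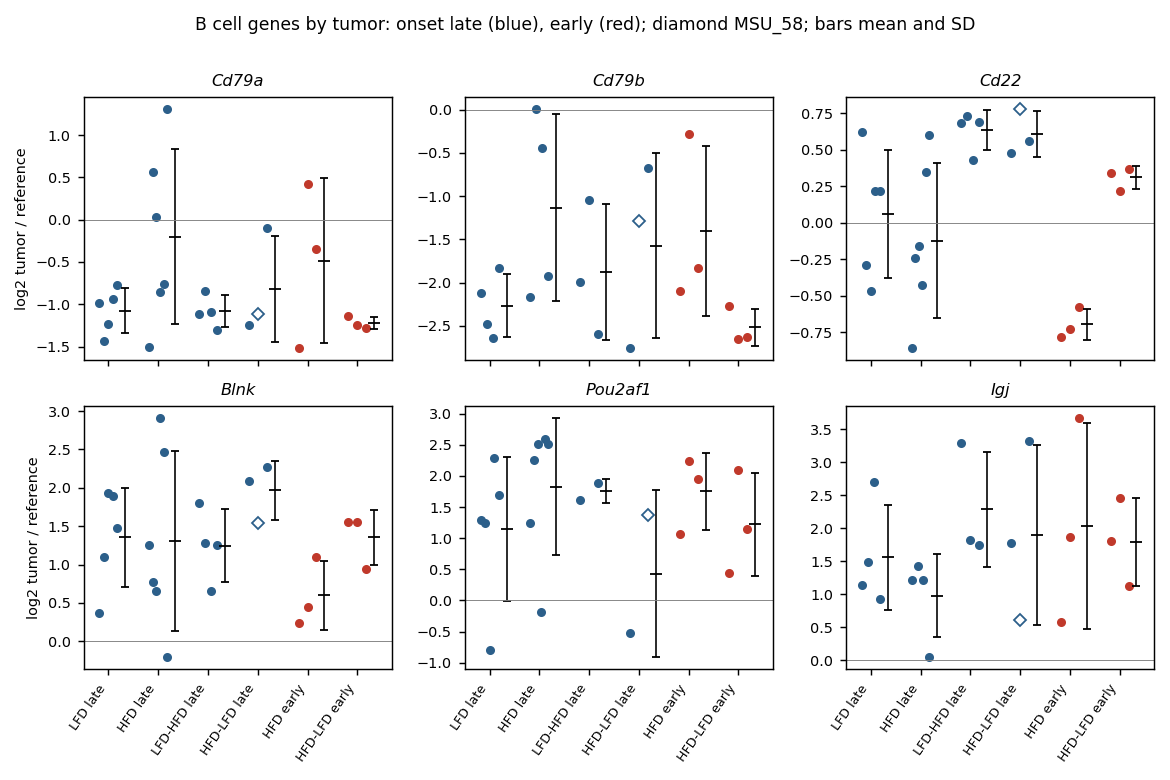
Log2 ratio of tumor to reference for 6 B cell genes in each tumor, by diet and onset (blue late, red early, open diamond MSU_58), with the mean and SD of each group; the vertical scale differs between panels. Early and late values overlap in all 6, and Cd79a reaches 1.31 in an HFD late tumor.

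Pairs of genes were compared across tumors, 8 pairs in all, with permutation p-values (100000 resamples, two-sided) adjusted over the 8. Cd79a and Cd79b had a Pearson r of 0.87 (n = 20, permutation p 1e-05, the smallest the resamples can give, adjusted 8e-05) and a Spearman rho of 0.78 (adjusted permutation p 0.00104). The r was 0.75 without MSU_67 and MSU_768, the tumors farthest from the median, and 0.93 and 0.90 within sessions 1 and 2. Cd3e and Cd3g had r = 0.83 (n = 20, adjusted permutation p 0.00016) and rho = 0.63 (adjusted permutation p 0.0151), with r = 0.57 without MSU_58 and MSU_163. Cd3e and Cd79b had r = 0.21 (adjusted permutation p 0.517) and rho = 0.29 (adjusted permutation p 0.349), with 0.03 in session 1 and 0.72 in session 2. Granzymes A and B had r = 0.30 (adjusted permutation p 0.362) and rho = 0.55 (adjusted permutation p 0.0287), and r was 0.70 without MSU_58. Gzmb and Prf1 had r = 0.06 (adjusted permutation p 0.795) and rho = 0.00 (adjusted permutation p 0.997). Cd4 with Cd8a, Pax5 with Pou2af1 and Igj with Pou2af1 had r of 0.46, 0.20 and 0.09, with adjusted permutation p from 0.148 to 0.795, and rho of 0.34, 0.12 and 0.20, with adjusted permutation p from 0.269 to 0.679. Without the 2 tumors farthest from the median in each pair, these r were 0.32, -0.12 and -0.29. The r of Cd4 with Cd8a was 0.25 without MSU_58 alone.

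**Figure D5:**
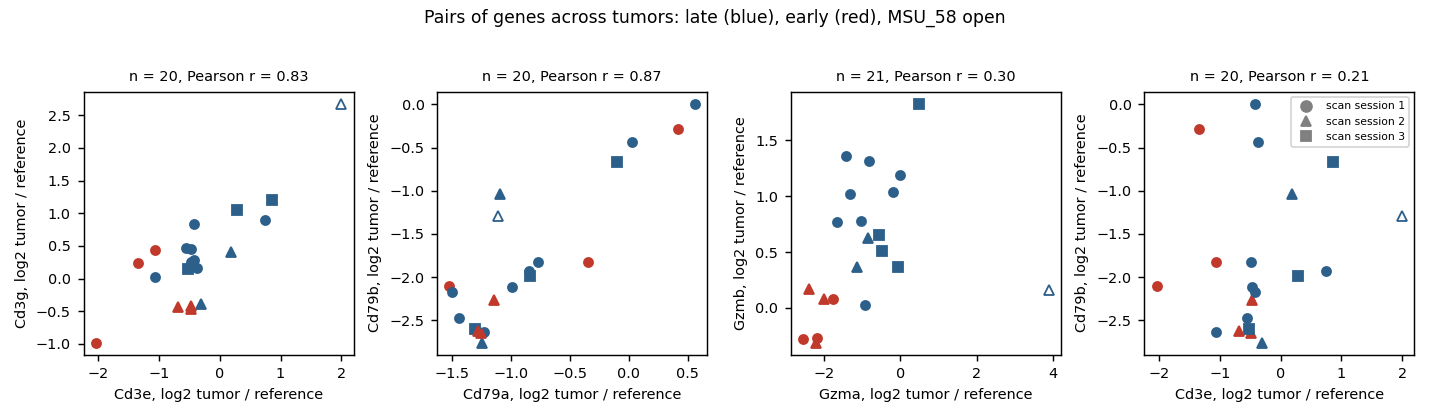
Log2 ratios of 4 pairs of genes, 1 point per tumor (red early, blue late, open MSU_58; symbols give the scan session). Cd79a and Cd79b lie along 1 line (r = 0.87), as do Cd3e and Cd3g (r = 0.83), while Cd3e and Cd79b scatter (r = 0.21).

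When each tested gene was set against Cd3e, a choice made after the data were seen, Zap70 was nearest (r = 0.92, and 0.79 without MSU_58 and MSU_163), followed by Cd2 (0.88 and 0.70), Cd3d (0.86 and 0.61), Cd4 (0.85 and 0.85) and Il2ra (0.85 and 0.72). Cd8a had 0.68, which rested on those tumors (0.17 without them), and so did the 0.50 of Lck (-0.05 without them). Of the B cell genes, Cd22 had 0.58 (adjusted permutation p 0.0106, rho = 0.56, adjusted permutation p 0.0293) and Blnk 0.52 (adjusted permutation p 0.0384, rho = 0.44, adjusted permutation p 0.109), and the other 7 ran from -0.09 (Igj) to 0.31 (Cr2, rho = 0.53, adjusted permutation p 0.0448), with Cd79a at 0.03. Adjusted over the 27 genes, the permutation p of the 5 nearest ran from 6.75e-05 to 0.000162 for r, with rho from 0.65 to 0.80 (adjusted permutation p from 0.00162 to 0.0102).

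Other genes of the lymphocytes and of the tissue around them give the setting. Their counts stand beside the 10.9% of all genes that were lower and the 6.95% that were higher. Of 14 other genes of T cell receptor signalling tested, 3 were lower in early tumors and none higher, with a median of -0.44 (5 were lower without MSU_58): Prkcq (a kinase below CD28) at -1.11, Fyb at -0.71 and Skap1 at -1.16 (limma, adjusted p 0.000792, 0.0114 and 0.0435). Of 18 genes of T cell differentiation and traffic 4 were lower and 3 higher, with a median of -0.19. Tbx21, the factor of type 1 T cells and natural killer cells, fell by 0.55, while Tcf7, a Wnt pathway factor also made outside T cells, rose by 2.40 (adjusted p 0.00533 and 0.00702). Among 18 other B cell genes 3 were lower and 2 higher, with a median of -0.19: Bcl11a, which mammary epithelium also makes, rose by 2.53, Tnfrsf13c, the receptor for the survival factor BAFF, rose by 1.27 and Cd37 fell by 0.41 (adjusted p 0.000984, 0.00118 and 0.019). Nkg7, a granule membrane protein, was lower by 0.90 (adjusted p 0.00185), the 1 of 3 natural killer genes tested that passed. None of the 4 plasma cell genes tested, of 11 in the list, passed. No immunoglobulin gene of the list was among those tested.

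Lists of other cell types were read beside these. Of 10 genes shared by all leukocytes 2 were lower (Lcp1 and Cd52), with a median of -0.45 over the 10. Levels of the list (mean over its genes of the log2 ratio about the median of each gene) were -0.54 to 0.57 in early and -0.29 to 0.58 in late tumors. The T cell genes had levels of -1.02 to -0.06 in early and -0.34 to 2.02 in late tumors, and the B cell genes -0.54 to 0.47 and -0.35 to 0.85. Of 6 genes tested from the list for lymph node stroma, 2 were lower in early tumors: Ltb, a lymphotoxin chain that lymphocytes make, by 0.92 and Madcam1, an adhesion molecule of vessels that lymphocytes enter by, by 0.85 (limma, adjusted p 0.0127 and 0.0489). Of this list none was higher, and levels were -0.71 to 0.09 in early and -0.40 to 0.61 in late tumors. No squamous gene of 6 passed, but all were above 0 with a median of 1.32, and levels were -0.61 to 2.82 in early and -1.57 to 5.18 in late tumors. Of 7 epithelial genes Krt19 was lower by 2.77 (adjusted p 0.0473), and levels were -1.36 to -0.01 in early and -2.73 to 1.01 in late tumors. Of 10 macrophage genes Lyz2 was higher by 0.69 (adjusted p 0.0393), and none of 8 neutrophil, 5 mast cell, 5 dendritic cell or 5 adipocyte genes passed. Without MSU_58 no macrophage or epithelial gene passed, and 1 of the 6 lymph node stroma genes did. The part of these other cell types in the values of the T cell genes was not tested.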

How the data were processed

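Per the file headers and labels, the authors deposited scanner output of 24 Agilent 2-color arrays, written by Feature Extraction (8.5.1.1 in the submitters' notes, 11.0.1.1 in the headers). The deposited intensity values are mean spot and median local background brightness, not normalized; the deposited log10 ratios of Cy5 to Cy3, dye-normalized by the scanner software, served as an alternative. Intensities were processed with limma 3.58.1 in R 4.3.3: normexp background correction (offset 50, on spots without outlier flags), loess within arrays, spots of a probe averaged, and dimmed spots set missing. Slide 6 was dim from between array lines 351 and 391 to 532, slide 7 from 1 to 120. A probe passed if its signal less background exceeded 10 in Cy5 and in Cy3 on 80% or more of its measured arrays (27320 of 39429), and the brightest probe stood for a gene. The number of tumors is among the limits on precision, and these limits were not compared. Log2 ratios were compared by limma with Benjamini-Hochberg adjustment over 20969 genes (threshold 0.05, two-sided), early against late over 24 arrays, HFD against LFD over 14, the contrasts within diets over 6 group means, and the 4 diets over 18 late arrays. The fits were tested on simulated data with known changes.

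The members and lists were chosen with earlier results of these data known. All members are accounted for, with values of single tumors for those that passed in any comparison and, in each role, for the one with the smallest p; Thy1, Lck, Cd4, Cd79a and other members were given values after theirs were seen. Up to 3 genes per further list, by smallest p, are named, except 1 that is not reported here. Alternatives covered dimmed spots, imputation, background, normalization, filters, probes, array weights, blocks by slide and scan session, and each tumor left out.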

Additional observations from a re-analysis of the deposited data

Results flagged for a closer look

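Within groups of 4 to 10 tumors, 70 combinations of gene and group were examined for a single tumor far from the rest, and 5 were found; chance gives about 1 in 20. In LFD late tumors MSU_137 was low in Cd3e (-1.06, the nearest at -0.55) and in Cd8b1 (-0.97, the nearest at -0.66). In HFD late tumors MSU_86 was high in Cd3e (0.75, the nearest at -0.37) and low in Igj (0.04, the nearest at 1.21). In LFD-HFD late tumors MSU_45 was low in Cd22 (0.43, the nearest at 0.68). MSU_86 was also the highest tumor in 11.9% of all genes. MSU_58 and MSU_163 stood in groups of 3, which were not examined this way.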

How the results depend on the processing

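Counts of genes that passed changed with the processing, and so did the share of all genes called. For early against late (4 genes) the count was 11 with array weights (36.7% of all genes passed), 9 at an unadjusted p under 0.05 and 9 from the mean of group means (Cd22, a B cell gene, among them, and 26.7% of all genes), 2 with HFD and HFD-LFD tumors alone (8.48%), 1 without the dimmed slides (19%), 1 with slide as a random block (9.22%) and 0 as a fixed block (0.353%), 2 within session 1 (7.32%) and 0 within session 2 (11.7%). Within HFD (2) it was 1 with dimmed spots kept, with the scanner's log ratio, with normexp on all spots, with median centring, without a filter or without the dimmed slides (7.43% to 16.7% of all genes), 0 from the tumor channel alone (6.13%) or with slide as a random block (2.38%), and 8 unadjusted (30.3%). Within HFD-LFD (0) it was 5 with normexp on all spots (2.68% of all genes), 5 with array weights (11.4%) and 10 unadjusted (16%). Among the 4 diets (0) it was 6 with array weights (30.3% of all genes) and 6 unadjusted (15.2%), and for HFD against LFD (0) it was 5 unadjusted (5.25%). With each tumor left out the counts ran from 1 (without MSU_163) to 9 (without MSU_58) for early against late, 0 to 2 within HFD, 0 to 8 within HFD-LFD (8 without MSU_26) and 0 to 1 among the 4 diets (Cd2 without MSU_26), and stayed 0 for HFD against LFD and for the difference between diets. The cause was not tested. Direction turned for Igj to -0.12 (scanner ratio), -0.03 (slide as a fixed block) and -0.06 (without MSU_97, range up to 0.56 with each tumor left out), Pax5 to 0.04 (tumor channel alone), 0.05 (array weights), 0.04 (without the dimmed slides) and 0.03 (without MSU_97, range down to -0.09), and Blnk to 0.70 (slide as a fixed block). Over up to 19 other settings (not within a session or with 1 tumor left out) it also turned for Cd4 (up to 0.23), Cd6 (0.59), Icos (0.45), Prf1 (0.09), Cd79a (0.15), Cd79b (0.23), Cr2 (0.10) and Fcrla (0.34), and for Cd5 (down to -0.29), Thy1 (-0.17) and Pou2af1 (-0.66). Within session 1 Cd79a and Cd79b were at 0.29. Over these 19 settings, Gzmb passed in 18, Cd3d and Gzma in 14 and Il2rb in 10, all below 0 in each. No paired analysis was possible because replicate numbers followed accession order and the labels paired no tumors. Dim signal limited Ms4a1, Blk, Ctla4, Foxp3, Pax5 and Fcrla.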
